A study of Mus musculus with 12 samples.

Results

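Sphingolipid and ceramide metabolism was followed through 44 genes, chosen by symbol from a list of the enzymes, regulators, transporters and receptors of the pathway. All 44 symbols were found, each on 1 row, among 27912 genes measured by RNA sequencing of polyadenylated liver RNA, and 43 had enough reads for the test. Livers labelled CCR1-KO, from mice lacking the chemokine receptor CCR1, were compared with livers labelled WT. The design text describes male C57BL/6 WT and CCR1 knockout mice that were 8 weeks old when feeding began. Mice of both groups ate the same diet, high in fat and cholesterol with cholate (the CL diet), for 12 weeks. Values of 6 of the 12 libraries were used, 3 from WT (numbered 62, 63 and 64) and 3 from CCR1-KO (numbered 65, 66 and 67), and library values are printed in this order. The sources used here do not state how the knockout was made or how the colonies were bred. The libraries are numbered, but the labels do not state that each came from a separate mouse, so p-values measure only the spread between these samples. The members were proposed with results of this same comparison known, so the counts below describe the genes and support nothing about the pathway as a whole.

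Sphingolipids are built on a long-chain base. Serine palmitoyltransferase in the endoplasmic reticulum starts the de novo route, which ends in ceramide, and ceramide is then turned into sphingomyelin or into glycosphingolipids. Lysosomal hydrolases take these lipids back to ceramide and sphingosine, and sphingosine kinases make sphingosine-1-phosphate (S1P), a signal read by G protein-coupled receptors. In liver, ceramides have been studied for their links to insulin resistance and steatosis. The 44 genes were placed in 6 branches: de novo ceramide synthesis (13 genes), sphingomyelin (8), glycosphingolipids (3), lysosomal breakdown (8), ceramidases outside the lysosome with ceramide kinase (4), and S1P (8).

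Libraries held 74699391 to 79154085 reads assigned to genes. Levels below are CPM, read counts relative to library size after scaling by TMM (trimmed mean of M values), and 1 read corresponded to 0.0113 to 0.0167 CPM. Means are given ± SD (n = 3 libraries). Differences are log2 fold changes, positive where CCR1-KO was higher, ± SE. They were tested with edgeR's quasi-likelihood test on counts, with Benjamini-Hochberg adjustment over 17729 genes and a threshold of 0.05. The targeted transcript, Ccr1, had 100, 23 and 123 reads in WT and 11, 4 and 14 in CCR1-KO replicates 65, 66 and 67 (log2 fold change -2.72 ± 0.76, adjusted p = 0.075), so the groups did not overlap but the test was not passed. Nnt, a gene known to differ between C57BL/6 substrains, has 2 models here. ENSMUSG00000116207 had 1627, 2640 and 2314 reads in WT and 0, 0 and 0 in CCR1-KO libraries. ENSMUSG00000025453 had 39.3 ± 6.51 CPM in WT and 140.5 ± 10.8 CPM in CCR1-KO. The models summed to 140.5 ± 10.8 CPM in CCR1-KO and 64.6 ± 1.41 in WT, so genotype and genetic background cannot be told apart. Liver identity was plain from albumin, at 67345, 64857 and 55393 CPM in WT and 49835, 61482 and 56696 in CCR1-KO libraries. Among 8 hepatocyte markers 2 rose (Cps1 and Tat), 0 fell and 6 did not pass, and 0 of 4 neutrophil and 0 of 7 lymphocyte markers passed by edgeR or by DESeq2, with 0 at an unadjusted p under 0.05. CCR1-KO replicate 65 stood apart from the other 2 knockout libraries, and of all tested genes 48.9% had it as the knockout library nearest to the WT mean. In bulk tissue, fewer cells of a type and less RNA per cell cannot be told apart.

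Across the pathway 1 member, St3gal5, rose and 8 fell: Smpd3, Asah1, Kdsr, Smpdl3a, Arsa, Asah2, Gm2a and Neu1. The other 34 tested members did not pass. Among all tested genes 6.44% were called, 2.83% as higher and 3.61% as lower. The groups did not overlap for 23 members, 3 with every CCR1-KO library above every WT library and 20 below, where all tested genes gave 15.2% above and 17.4% below. The median log2 fold change over the 43 members was -0.30, and 35 of 43 values were below 0, while the median over all tested genes was 0.0017 with 49.9% below 0. By branch the median was -0.54 for lysosomal breakdown, -0.44 for ceramidases and ceramide kinase, -0.38 for S1P, -0.21 for de novo synthesis, -0.11 for sphingomyelin and 0.52 for the 3 glycosphingolipid genes. Calls over all genes were fragile to the loss of a library. Without WT replicate 62, 63 or 64, the genes called lower numbered 120 of 18331, 66 of 18285 and 106 of 18297. In these fits 0 members fell by the test, and St3gal5 was called in the fit without WT replicate 63 alone of these 3. Without CCR1-KO replicate 65 the same 9 members passed together with Cerk, Sgpl1 and S1pr2, so that 1 was higher and 11 lower, where 13.2% of all genes passed, 5.5% as higher and 7.67% as lower. DESeq2 called 1 member higher and 11 lower, adding Psap, Sgpp1 and S1pr2, where it called 13.1% of all genes, 5.74% as higher and 7.4% as lower.

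**Figure D1:**
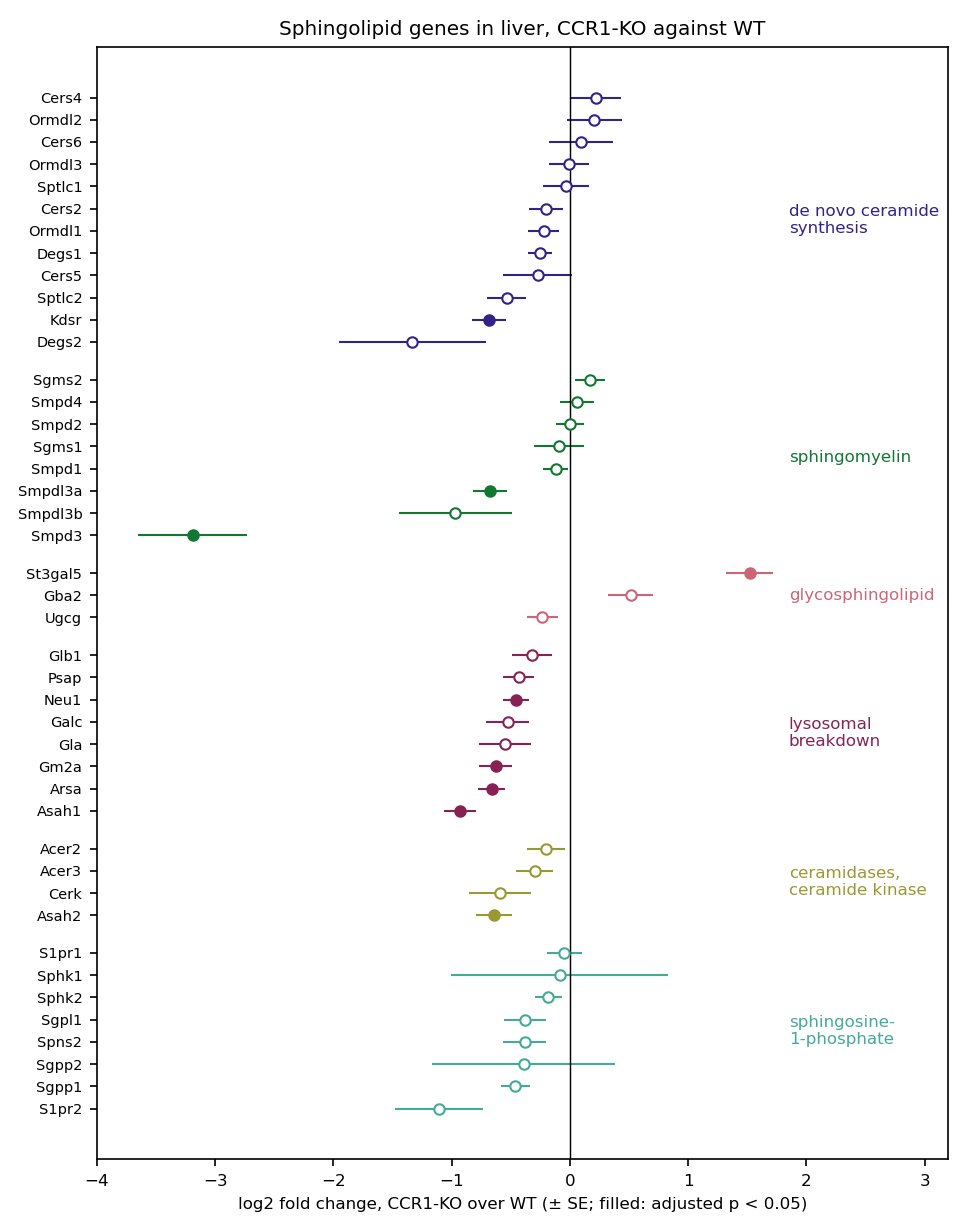
Log2 fold change of CCR1-KO over WT (x axis) for each of the 43 tested members (y axis), grouped and coloured by branch; bars are ± SE and filled points passed an adjusted p of 0.05. St3gal5 at 1.52 is the filled point on the right and Smpd3 at -3.19 lies farthest to the left, while all 8 points of lysosomal breakdown lie left of 0.

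The pathway's levels are best compared per gene length, as FPKM (fragments relative to transcript length and library size, as deposited). Psap, the precursor of the saposins that present lipids to lysosomal hydrolases, was the most abundant member, with a mean of 198.7 FPKM over the 6 libraries. In WT it was followed by Cers2 at 76.7 ± 6.78 FPKM and St3gal5 at 49.5 ± 9.60 FPKM. In CCR1-KO the order of this pair was the other way round, with St3gal5 at 113 ± 9.08 FPKM and Cers2 at 53.9 ± 6.22 FPKM. Ormdl3 and Degs1 came next, with means of 40.5 and 20.5 FPKM over the 6 libraries. At the other end Smpdl3b, Sphk1, Degs2 and Sgpp2 averaged under 0.2 FPKM, and Sptlc3, a serine palmitoyltransferase subunit, had 0, 11 and 0 reads in WT and 2, 0 and 4 in CCR1-KO libraries and was not tested. A count of 0 reads, as in WT replicates 62 and 64, has an exact Poisson 95% upper bound of 3.69 reads, which covers counting error only.

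In de novo synthesis 1 of 12 tested genes fell, the reductase gene Kdsr, and 11 did not pass. Kdsr, the ketosphinganine reductase that acts directly after serine palmitoyltransferase (ENSMUSG00000009905, chromosome 1, 106720459 to 106759727, minus strand, GRCm38), had 35.3, 37.3 and 35.5 CPM in WT and 26.2, 22.5 and 18.5 CPM in CCR1-KO libraries. The WT libraries lay close together and every CCR1-KO library lay below them (log2 fold change -0.69 ± 0.14, adjusted p = 0.035). Leaving out any library other than CCR1-KO replicate 65 ended this call.

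Serine palmitoyltransferase, the entry enzyme, is a dimer of SPTLC1 with SPTLC2 or SPTLC3. Sptlc2 had 22.8, 22.6 and 26.9 CPM in WT and 18.2, 18.6 and 13.0 CPM in CCR1-KO libraries, so its groups did not overlap, but it did not pass (log2 fold change -0.54 ± 0.17, adjusted p = 0.099). For Sptlc1, with 17.7, 21.1 and 27.1 CPM in WT and 23.5, 23.9 and 17.0 CPM in CCR1-KO, the groups overlapped (log2 fold change -0.03 ± 0.20, adjusted p = 0.94). Within each library, Sptlc2 made up 32.7% ± 3.07 in WT and 25.3% ± 0.244 in CCR1-KO of the summed FPKM of the 3 subunit genes, a share that library scaling does not affect and for which the groups did not overlap. The ORMDL proteins restrain serine palmitoyltransferase when ceramide is plentiful, and 0 of their 3 genes passed. Ormdl3 was the most abundant, at 70.7, 76.1 and 78.0% of the family's FPKM in WT and 79.7, 75.7 and 65.1% in CCR1-KO libraries, and its CPM were 81.8, 99.8 and 104 in WT and 115, 88.6 and 80.3 in CCR1-KO (log2 fold change -0.01 ± 0.17, adjusted p = 0.98). Ormdl2 stood out in CCR1-KO replicate 67 alone, at 16.0, 15.7 and 27.2 CPM in CCR1-KO replicates 65, 66 and 67 against 19.7, 16.0 and 15.3 in WT (adjusted p = 0.63), and 1114 bases of its exons are shared with Dnajc14 on the opposite strand. Ormdl1 had 20.1 ± 2.45 CPM in WT and 17.2 ± 0.804 CPM in CCR1-KO (adjusted p = 0.34).

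Ceramide synthases attach the fatty acid, and each prefers a range of chain lengths. Cers2, which makes very-long-chain ceramides and is the main isoform of liver, carried 95.9% ± 0.671 in WT and 95.2% ± 1.98 in CCR1-KO of the ceramide synthase FPKM. Its CPM were 321, 259 and 255 in WT and 231, 223 and 272 in CCR1-KO, and the groups overlapped (log2 fold change -0.20 ± 0.15, adjusted p = 0.43). Cers6, which makes ceramides of shorter chains, was nearly constant in WT at 19.1, 19.5 and 19.3 CPM and scattered in CCR1-KO at 17.0, 31.0 and 13.9 CPM, highest in replicate 66 (log2 fold change 0.09 ± 0.27, adjusted p = 0.87). Cers4 and Cers5, of other chain-length preference, were low. Cers4 had 3.19 ± 0.388 CPM in WT and 3.71 ± 0.464 CPM in CCR1-KO (adjusted p = 0.57), and Cers5 had 2.63 ± 0.456 CPM in WT and 2.17 ± 0.603 CPM in CCR1-KO (adjusted p = 0.61).

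Degs1, the desaturase that turns dihydroceramide into ceramide, had 61.5, 61.2 and 63.9 CPM in WT and 52.8, 50.6 and 53.3 CPM in CCR1-KO. Both groups were tight and did not overlap, yet the difference was small and did not pass (log2 fold change -0.25 ± 0.10, adjusted p = 0.17). Degs2, the related hydroxylase of phytoceramide synthesis, had 25, 37 and 38 reads in WT and 8, 6 and 16 in CCR1-KO, and its value of -1.33 ± 0.62 was imprecise (adjusted p = 0.23).

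The sphingomyelin branch held Smpd3, with the lowest log2 fold change of the 43 tested members. It encodes a neutral sphingomyelinase of the plasma membrane and Golgi, which splits sphingomyelin into ceramide and phosphocholine (ENSMUSG00000031906, chromosome 8, 106252548 to 106337988, minus strand). The gene had 14.2, 11.7 and 19.1 CPM in WT and 2.34, 1.96 and 0.602 CPM in CCR1-KO libraries, from 1170, 1039 and 1683 and 187, 128 and 36 reads. Every CCR1-KO library lay far below every WT library, with a mean at 10.9% of that in WT (log2 fold change -3.19 ± 0.46, adjusted p = 0.013). The spread was wide in both groups, with WT replicate 64 highest and CCR1-KO replicate 67 lowest. The call was lost without any of WT replicates 62, 63 and 64 and held without each CCR1-KO library.

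The other neutral sphingomyelinases did not pass. Smpd2 had 32.6, 37.0 and 33.0 CPM in WT and 34.9, 36.7 and 31.1 CPM in CCR1-KO (log2 fold change 0.00 ± 0.12, adjusted p = 0.997), though 905 bases of its exons are shared with Mical1 on the opposite strand. Smpd4 had 16.2, 14.1 and 15.4 CPM in WT and 16.6, 17.7 and 13.3 CPM in CCR1-KO (log2 fold change 0.06 ± 0.14, adjusted p = 0.83). As a share of the summed FPKM of these 3 genes, Smpd3 made up 23.1, 18.6 and 28.7% in WT and 4.42, 3.58 and 1.31% in CCR1-KO libraries, and the groups did not overlap. Of the Smpd3 exons 247 bases are shared with Prmt7 on the opposite strand, which had a mean of 11.5 CPM in WT and 14.2 CPM in CCR1-KO.

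Markers of stellate cells and fibroblasts also differed between the groups. Of 10 tested, 6 fell and 4 did not pass, where 3.61% of all tested genes were called lower. With 1 library left out, Col1a1 and Reln passed in 0 fits, Lrat and Dcn only without CCR1-KO replicate 65, Col1a2 in 3 and Col3a1 in 5. All 10 had reads in every library, and their summed level was 416, 461 and 972 CPM in WT and 218, 202 and 226 CPM in CCR1-KO libraries. All CCR1-KO libraries lay below WT for this sum, and WT replicate 64 was the highest library. Bile duct markers summed to 141, 118 and 190.0 CPM in WT and 49.1, 42.2 and 48.7 CPM in CCR1-KO, with 1 of 6 (Spp1) lower and Cftr at 0 reads in at least 1 library. Spp1 made up most of these sums, at 134, 111 and 180.1 CPM in WT and 43.8, 37.1 and 44.5 CPM in CCR1-KO. The part of either cell type in the Smpd3 difference was not tested.

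Smpdl3a, a phosphodiesterase related in sequence to acid sphingomyelinase, was the most abundant gene of this branch, at 22.5 ± 1.84 FPKM in WT and 11.6 ± 3.32 FPKM in CCR1-KO (ENSMUSG00000019872, chromosome 10, 57794335 to 57811830, plus strand). It had 47.0, 49.8 and 40.7 CPM in WT and 33.1, 24.9 and 28.2 CPM in CCR1-KO, and all CCR1-KO libraries lay below WT (log2 fold change -0.67 ± 0.14, adjusted p = 0.037). That call held only in the fit without CCR1-KO replicate 65 among the 6 fits with 1 library left out. Its relative Smpdl3b was low, at 0.549 ± 0.124 CPM in WT and 0.279 ± 0.0948 CPM in CCR1-KO, and did not pass (adjusted p = 0.25).

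Acid sphingomyelinase itself, Smpd1, works in the lysosome and had 38.4, 36.3 and 41.0 CPM in WT and 35.0, 34.1 and 37.3 CPM in CCR1-KO, overlapping between groups (log2 fold change -0.12 ± 0.11, adjusted p = 0.53). The synthases that make sphingomyelin from ceramide did not pass either. Sgms2, the synthase of the plasma membrane, had 38.8, 39.7 and 38.4 CPM in WT and 41.1, 39.7 and 50.6 CPM in CCR1-KO (log2 fold change 0.17 ± 0.12, adjusted p = 0.45), and Sgms1, that of the Golgi, had 11.8 ± 1.25 CPM in WT and 11.1 ± 3.01 CPM in CCR1-KO (adjusted p = 0.83). Sgms2 supplied 84.9% ± 1.32 in WT and 87.2% ± 1.83 in CCR1-KO of the FPKM of this pair.

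Of the glycosphingolipid genes, St3gal5 rose. It encodes the sialyltransferase that makes ganglioside GM3 from lactosylceramide, the entry to most gangliosides (ENSMUSG00000056091, chromosome 6, 72097592 to 72154571, plus strand). Its levels were 118, 156 and 109 CPM in WT and 289, 406 and 403 CPM in CCR1-KO libraries. All CCR1-KO libraries lay above WT, replicate 65 being the lowest of them, and their mean was 287% of that in WT (log2 fold change 1.52 ± 0.20, adjusted p = 0.0098). The call was lost without WT replicate 62 and without WT replicate 64, and the direction was the same in all 15 alternative fits, with log2 fold changes from 1.19 to 1.69. 

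Because St3gal5 was the member that rose, the bases before its annotated start are shown, 5′ to 3′, with GGGCGG or its reverse complement (the core of the GC box) in capitals. They lie at chr6:72097358-72097591, plus strand, GRCm38.p6, in the promoter table taken from RefSeq. The table's window is 250 bases long, and its last bases are left off where they fall inside the gene model of the files.
St3gal5: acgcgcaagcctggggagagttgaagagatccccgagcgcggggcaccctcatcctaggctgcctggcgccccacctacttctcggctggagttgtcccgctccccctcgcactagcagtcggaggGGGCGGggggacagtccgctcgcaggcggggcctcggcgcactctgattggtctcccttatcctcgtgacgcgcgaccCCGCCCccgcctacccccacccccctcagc
This window held GGGCGG, counting both strands, at 2 places, and held no CACGTG (the E-box), no TCACGTGA (an E-box of the kind found in lysosomal gene promoters, which contains CACGTG) and no sterol response element. Of 32851 promoter windows of the same length in the RefSeq table, 32.7% held GGGCGG, a motif chosen after the sequences were seen, 6.02% CACGTG, 0.785% TCACGTGA and 0.192% the sterol response element, on either strand. Such matches describe the letters only.

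The enzymes on either side of glucosylceramide did not pass. Ugcg, the synthase that starts the glucosylceramide series, had 15.7, 18.3 and 19.9 CPM in WT and 15.7, 14.9 and 15.3 CPM in CCR1-KO (log2 fold change -0.23 ± 0.13, adjusted p = 0.31). Gba2, the glucosylceramidase outside the lysosome, had 11.4, 10.7 and 8.25 CPM in WT and 13.5, 12.3 and 17.6 CPM in CCR1-KO. All its CCR1-KO libraries lay above WT, replicate 67 highest, but the adjusted p was 0.15 (log2 fold change 0.52 ± 0.19). Over all tested genes 4331 of 17729 had an unadjusted p under 0.05. Of 13 tested further genes of glycosphingolipid synthesis and transfer 3 did, 0 passed by edgeR and DESeq2 called 1. They included B4galnt1, the next enzyme of the ganglioside route, at 86.5 ± 12.1 CPM in WT and 94.6 ± 13.6 CPM in CCR1-KO (adjusted p = 0.65), and Gal3st1, the sulfotransferase that makes sulfatide, at 4.58 ± 1.40 CPM in WT and 0.943 ± 0.945 CPM in CCR1-KO (adjusted p = 0.1). B4galt5 had 27.6 ± 0.611 CPM in WT and 35.9 ± 5.35 CPM in CCR1-KO (adjusted p = 0.13). It was the 1 gene of the 13 with every CCR1-KO library above WT, and 4 had every one below. Over all tested genes these shares were 15.2% and 17.4%.

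**Figure D2:**
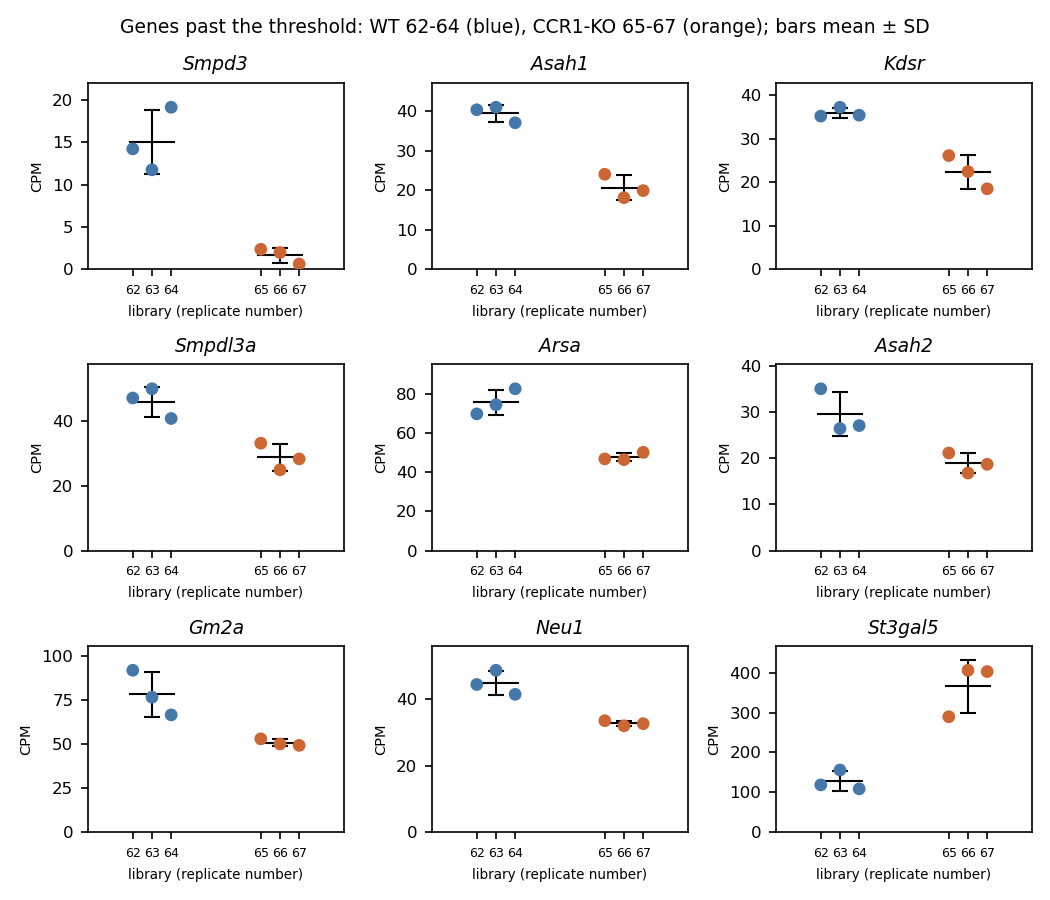
Level in CPM (y axis, from 0) of the 9 members past the threshold in each library (x axis, replicate number), WT in blue and CCR1-KO in orange; black bars are the mean ± SD (n = 3). In each panel the groups do not overlap, with CCR1-KO above WT for St3gal5 and below for the other 8 genes.

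Of 8 genes of lysosomal breakdown 4 fell in CCR1-KO livers: Asah1, Arsa, Gm2a and Neu1. The other 4 did not pass, 0 rose, and for 7 of the 8 every CCR1-KO library lay below WT. Over all tested genes 3.61% were called lower and 17.4% had every CCR1-KO library below WT. Asah1, the acid ceramidase that splits ceramide into sphingosine and a fatty acid (ENSMUSG00000031591, chromosome 8, 41340197 to 41374773, minus strand), had 40.4, 41.0 and 37.1 CPM in WT and 24.0, 18.1 and 19.9 CPM in CCR1-KO. The mean in CCR1-KO was 52.4% of that in WT, and replicate 65 was the highest of the 3 (log2 fold change -0.93 ± 0.14, adjusted p = 0.013). The call held without each CCR1-KO library and was lost without any WT library.

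Arsa, the sulfatase that removes sulfate from sulfatide (ENSMUSG00000022620, chromosome 15, 89472476 to 89477425, minus strand), had 69.6, 74.3 and 82.4 CPM in WT and a narrow 46.7, 46.3 and 50.1 CPM in CCR1-KO (log2 fold change -0.66 ± 0.11, adjusted p = 0.02). Of its exons 690 bases are shared with C230037L18Rik on the opposite strand, which had a mean of 1.71 CPM in WT and 0.967 CPM in CCR1-KO. Gm2a, the activator that lifts ganglioside GM2 out of the membrane for hydrolysis (ENSMUSG00000000594, chromosome 11, 55098115 to 55113029, plus strand), had 92.0, 76.7 and 66.6 CPM in WT and 53.0, 50.1 and 49.3 CPM in CCR1-KO (log2 fold change -0.63 ± 0.14, adjusted p = 0.042). Here the WT libraries spread and the CCR1-KO libraries were tight. Neu1, the lysosomal sialidase (ENSMUSG00000007038, chromosome 17, 34931253 to 34935953, plus strand), had 44.5, 48.8 and 41.5 CPM in WT and 33.6, 32.0 and 32.7 CPM in CCR1-KO, and lay at the edge of the threshold (log2 fold change -0.46 ± 0.11, adjusted p = 0.04998). Arsa, Gm2a and Neu1 passed in 1 of the 6 fits with a library left out, that without CCR1-KO replicate 65.

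The promoters of these 3 genes are shown as those of the lysosomal genes that fell and had an entry in RefSeq's table. Kdsr and Asah2 also fell and had an entry, but their promoters are not shown. RefSeq's table matched 40 of the 44 members and held none for Asah1, Smpd3, Smpdl3a and S1pr1. Each promoter shown holds the bases before the start in RefSeq's table on GRCm38.p6, 5′ to 3′, as above, with CACGTG and GGGCGG (either strand) in capitals. They are Arsa at chr15:89477426-89477674 on the minus strand, Gm2a at chr11:55097735-55097984 on the plus strand and Neu1 at chr17:34931003-34931252 on the plus strand. The Gm2a window ends before the start of the gene model given above, 55098115, and does not reach it.
Arsa: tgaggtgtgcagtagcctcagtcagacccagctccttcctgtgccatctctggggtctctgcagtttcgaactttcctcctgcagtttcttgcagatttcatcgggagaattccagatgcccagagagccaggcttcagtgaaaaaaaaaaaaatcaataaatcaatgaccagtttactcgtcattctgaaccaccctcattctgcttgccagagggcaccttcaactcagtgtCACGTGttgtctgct
Gm2a: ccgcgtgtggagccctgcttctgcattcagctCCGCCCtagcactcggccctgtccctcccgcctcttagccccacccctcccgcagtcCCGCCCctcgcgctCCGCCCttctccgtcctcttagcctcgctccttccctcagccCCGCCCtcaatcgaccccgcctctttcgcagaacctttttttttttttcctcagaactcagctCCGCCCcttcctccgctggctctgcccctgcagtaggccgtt
Neu1: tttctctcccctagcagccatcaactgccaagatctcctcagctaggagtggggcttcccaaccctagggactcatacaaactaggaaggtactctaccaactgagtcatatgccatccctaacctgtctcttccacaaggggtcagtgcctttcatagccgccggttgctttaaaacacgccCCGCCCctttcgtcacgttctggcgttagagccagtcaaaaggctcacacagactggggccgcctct
The Arsa window held 1 CACGTG and no GGGCGG, that of Gm2a held GGGCGG at 5 places and that of Neu1 at 1. Among the 56 windows of the 40 matched members, 11 held CACGTG and 29 held GGGCGG. Over all windows the shares were 6.02% and 32.7%, and the difference was not tested. CACGTG stood in the windows of 10 genes (Arsa, Cers2, Cers6, Degs1, Gla, Glb1, Sgms2, Sgpp2, Smpd2 and Sphk1), of which Arsa was the one past the threshold. TCACGTGA stood in that of Gla, and the sterol response element in none.

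Psap, the most abundant member, had 646, 649 and 708 CPM in WT and 537, 452 and 494 CPM in CCR1-KO. Its groups did not overlap and it did not pass (log2 fold change -0.43 ± 0.13, adjusted p = 0.091), though it did by DESeq2 (adjusted p = 0.031). Galc, the galactosylceramidase, had 8.48, 8.31 and 7.71 CPM in WT and 6.54, 5.79 and 4.65 CPM in CCR1-KO (log2 fold change -0.53 ± 0.18, adjusted p = 0.12). Gla, the alpha-galactosidase that clears globosides, had 5.38, 4.33 and 6.95 CPM in WT and 3.71, 3.79 and 3.88 CPM in CCR1-KO (log2 fold change -0.55 ± 0.22, adjusted p = 0.17). The groups were apart for both genes. Glb1, the beta-galactosidase, was the member of the branch with overlapping groups, with 11.9 ± 1.59 CPM in WT and 9.51 ± 1.44 CPM in CCR1-KO (adjusted p = 0.29).

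Other lysosomal genes gave the following, where 2.83% of all tested genes were called higher and 3.61% lower. Of 8 tested further genes of lysosomal sphingolipid and sterol handling 1 fell, Hexa, the alpha subunit of the hexosaminidase that cleaves GM2, at 102 ± 9.33 CPM in WT and 48.4 ± 12.3 CPM in CCR1-KO (log2 fold change -1.08 ± 0.19, adjusted p = 0.021). In a list of 23 lysosomal genes outside the sphingolipid lists, 6 fell, 0 rose and 17 did not pass. Their median log2 fold change was -0.30, against -0.54 in the sphingolipid branch, and the difference between these lists was not tested. A role of some of the 23 in sphingolipid breakdown is not excluded. The 4 of smallest p were Cd63, a membrane protein of late endosomes (log2 fold change -2.35 ± 0.34), the acid lipase gene Lipa, with 256 ± 19.8 CPM in WT and 129 ± 31.9 CPM in CCR1-KO, the proton pump subunit gene Atp6v1a (log2 fold change -0.58 ± 0.12) and the cathepsin gene Ctsd (log2 fold change -0.67 ± 0.15). Of these calls all but that of Cd63 were lost without any library other than CCR1-KO replicate 65.

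Macrophages are rich in lysosomes, and their markers varied between libraries. The 13 markers summed to 318, 309 and 242 CPM in WT and 346, 147 and 163 CPM in CCR1-KO replicates 65, 66 and 67; 2 fell (Trem2 and Itgax), 0 rose, and all 13 had reads in every library. The lysosomal branch summed to 917, 914 and 964 CPM in WT and 716, 617 and 663 CPM in CCR1-KO. Psap, which did not pass, made up most of these sums, at 646, 649 and 708 CPM in WT and 537, 452 and 494 CPM in CCR1-KO. In CCR1-KO replicate 65 the macrophage sum was above those of WT, with the Kupffer cell marker Clec4f at 48.5, 58.5 and 29.6 CPM in WT and 89.5, 45.5 and 41.6 CPM in CCR1-KO, and the lysosomal sum was below those of WT. Over all tested genes 3.61% were called lower and 17.4% had every CCR1-KO library below WT. Of the 13 markers 4 (Cd68, Gpnmb, Trem2 and Itgax) were below every WT library in all 3 CCR1-KO libraries, replicate 65 included. Cd68, for example, had 16.1, 12.1 and 13.8 CPM in WT and 9.19, 4.06 and 6.91 CPM in CCR1-KO. The part of macrophage RNA in the lysosomal difference was not tested.

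Outside the lysosome, ceramide is cleaved by neutral and alkaline ceramidases. Asah2, the neutral ceramidase (ENSMUSG00000024887, chromosome 19, 31982597 to 32108168, minus strand), had 35.0, 26.4 and 27.0 CPM in WT and 21.1, 16.8 and 18.7 CPM in CCR1-KO. WT replicate 62 was the highest library and all CCR1-KO libraries lay below WT (log2 fold change -0.64 ± 0.15, adjusted p = 0.049); like Neu1, it passed narrowly, and among the fits with a library left out only that without CCR1-KO replicate 65 kept it. The Golgi ceramidase Acer2 had 14.6, 15.8 and 14.7 CPM in WT and 16.1, 11.8 and 11.3 CPM in CCR1-KO, with overlap (log2 fold change -0.20 ± 0.16, adjusted p = 0.49). Acer3, an alkaline ceramidase of the endoplasmic reticulum and Golgi, had 12.6 ± 1.01 CPM in WT and 10.2 ± 1.54 CPM in CCR1-KO (adjusted p = 0.29). Within the 4 ceramidases Asah1 made up 67.3, 69.5 and 67.6% of FPKM in WT and 59.8, 59.5 and 59.8% in CCR1-KO libraries, while Acer2 made up 11.5, 12.6 and 12.7% and 19.0, 18.3 and 16.1%. For both shares the groups did not overlap.

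Cerk, which phosphorylates ceramide, had 7.70, 7.10 and 6.39 CPM in WT and 6.34, 4.55 and 3.16 CPM in CCR1-KO. The CCR1-KO libraries were lower and spread out, with replicate 65 just below WT (log2 fold change -0.59 ± 0.26, adjusted p = 0.21). Without that replicate the adjusted p was 0.049 (log2 fold change -0.87 ± 0.23).

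**Figure D3:**
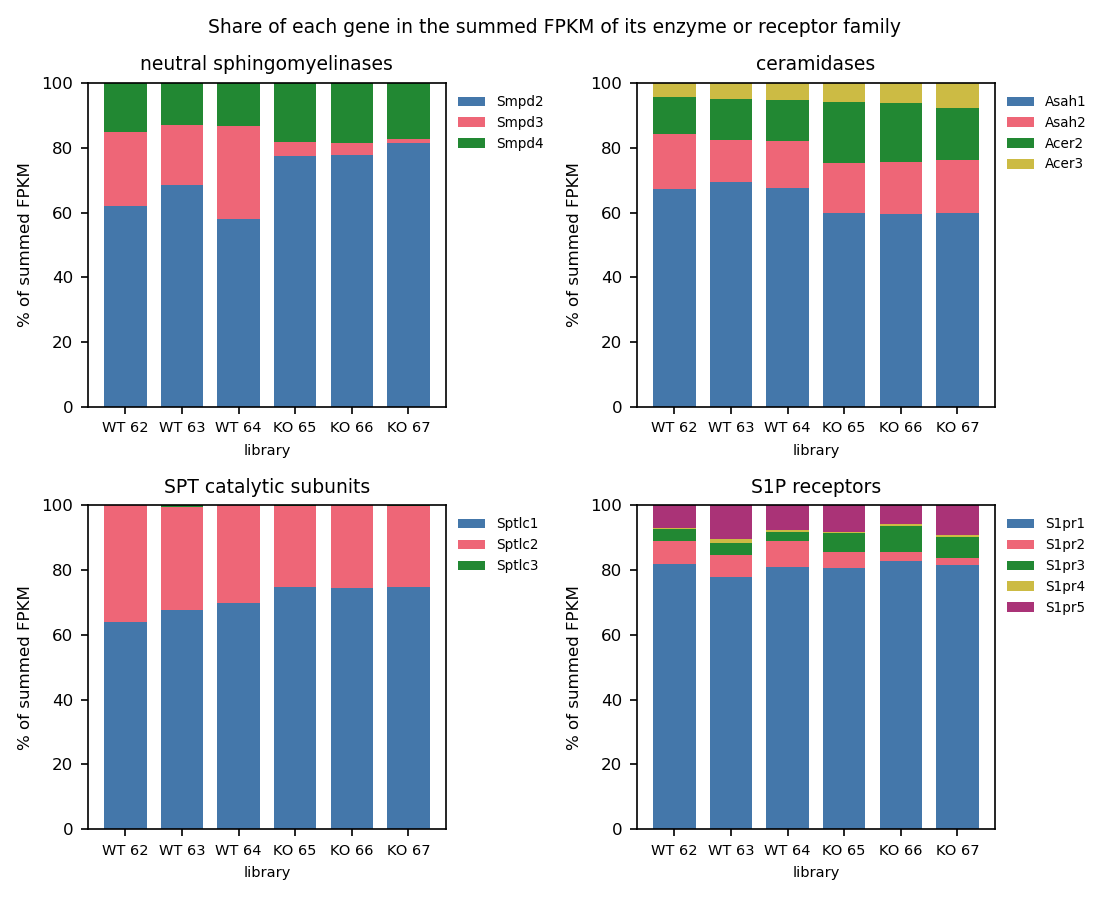
Percent of the summed FPKM of a gene family (y axis) taken by each gene in each library (x axis) for neutral sphingomyelinases, ceramidases, catalytic subunits of serine palmitoyltransferase (SPT) and S1P receptors. The Smpd3 segment is 23.1, 18.6 and 28.7% in WT and 4.42, 3.58 and 1.31% in CCR1-KO libraries, while S1pr1 keeps most of the receptor total in every library.

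None of the 8 genes of the S1P branch passed the edgeR test. At an unadjusted p under 0.05 there were 2, Sgpp1 and S1pr2, where all tested genes gave 4331 of 17729. DESeq2 called both, where it called 13.1% of all genes. Sphk2, the nuclear and mitochondrial sphingosine kinase, had the highest mean level of the branch per gene length, at 13.2 ± 0.957 FPKM in WT and 9.52 ± 2.18 FPKM in CCR1-KO, with S1pr1 close to it at 11.9 ± 1.67 and 9.41 ± 2.75 FPKM. It had 51.9, 55.8 and 54.1 CPM in WT and 50.8, 48.8 and 43.2 CPM in CCR1-KO (log2 fold change -0.18 ± 0.11, adjusted p = 0.36), and 539 bases of its exons are shared with Dbp, a clock-controlled gene, and 373 with Rpl18, both on the opposite strand. Dbp had 42.0, 44.8 and 39.0 CPM in WT and 12.1, 74.0 and 85.2 CPM in CCR1-KO, lowest in replicate 65. Sphk1, the cytosolic kinase, was rare, with 49, 61 and 91 reads in WT and 4, 107 and 30 reads in CCR1-KO (log2 fold change -0.09 ± 0.91, adjusted p = 0.97). Exact Poisson 95% intervals were 1.09 to 10.2 reads in CCR1-KO replicate 65 and 87.7 to 129 in replicate 66, so these libraries differed by more than counting error within 1 group.

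Removal of S1P is shared by a lyase and phosphatases. Sgpp1, the phosphatase that returns S1P to sphingosine, had 63.4, 62.4 and 53.8 CPM in WT and 45.3, 39.3 and 45.8 CPM in CCR1-KO. Its groups did not overlap and it missed the threshold (log2 fold change -0.46 ± 0.12, adjusted p = 0.065). Sgpl1, the lyase that degrades S1P irreversibly, had 63.8, 82.5 and 77.1 CPM in WT and 71.4, 49.6 and 50.6 CPM in CCR1-KO (log2 fold change -0.38 ± 0.18, adjusted p = 0.23). For the lyase CCR1-KO replicate 65 lay among the WT libraries, and without it the adjusted p was 0.044 (log2 fold change -0.57 ± 0.14). Sgpp2 was near the detection limit, with 28, 40 and 21 reads in WT and 4, 32 and 15 in CCR1-KO (adjusted p = 0.8). Spns2, the exporter that releases S1P from endothelium, had 29.8, 30.2 and 30.9 CPM in WT, nearly equal, and 28.8, 17.2 and 23.8 CPM in CCR1-KO, all lower (log2 fold change -0.38 ± 0.18, adjusted p = 0.24).

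Among the receptors, S1pr1, the endothelial receptor, was the main one, with 80.2% ± 2.06 in WT and 81.6% ± 1.10 in CCR1-KO of the FPKM of the 5 S1P receptor genes. It had 33.8, 33.3 and 39.5 CPM in WT and 39.7, 28.5 and 35.0 CPM in CCR1-KO, with overlapping groups (log2 fold change -0.05 ± 0.15, adjusted p = 0.88). Of 10 endothelial markers 0 passed by edgeR or by DESeq2, and 5 had an unadjusted p under 0.05, against 4331 of 17729 tested genes. The 10 markers had a median log2 fold change of -0.43. They summed to 259, 225 and 177 CPM in WT and 206, 159.6 and 165 CPM in CCR1-KO. S1pr2, a receptor that conjugated bile acids also activate in hepatocytes, had 7.67, 7.59 and 10.5 CPM in WT and 6.59, 2.68 and 2.64 CPM in CCR1-KO. CCR1-KO replicate 65 lay near the WT libraries and replicates 66 and 67 far below (log2 fold change -1.11 ± 0.37, adjusted p = 0.12). Without replicate 65 the log2 fold change was -1.69 ± 0.23 (adjusted p = 0.0064). The macrophage sum given above split the CCR1-KO libraries in the same way, and its part in the S1pr2 values was not tested.

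S1pr3, a further receptor from the list of other pathway genes, rose. It had 2.28, 2.29 and 1.89 CPM in WT and 4.10, 4.05 and 4.08 CPM in CCR1-KO, very even within the knockout group (log2 fold change 0.92 ± 0.20, adjusted p = 0.041), and with 1 library left out it passed only in the fit without CCR1-KO replicate 65. Apom, the apolipoprotein that carries S1P in plasma, had 83.3 ± 16.7 CPM in WT and 130.5 ± 30.2 CPM in CCR1-KO and did not pass (adjusted p = 0.12). Of all tested genes 2.83% were called higher and 3.61% lower. Over all 38 tested further genes of the pathway 1 rose and 3 fell. Besides Hexa these were Elovl1, an elongase that supplies very-long-chain acyl groups, at 39.2 ± 1.77 CPM in WT and 23.9 ± 3.27 CPM in CCR1-KO (log2 fold change -0.71 ± 0.13, adjusted p = 0.023), and Rtn4, whose product Nogo-B restrains serine palmitoyltransferase, at 139 ± 24.0 CPM in WT and 70.2 ± 19.8 CPM in CCR1-KO (log2 fold change -0.99 ± 0.22, adjusted p = 0.041). With 1 library left out, Hexa and Rtn4 passed only in the fit without CCR1-KO replicate 65, and Elovl1 only in those without CCR1-KO replicate 65 or 66.

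**Figure D4:**
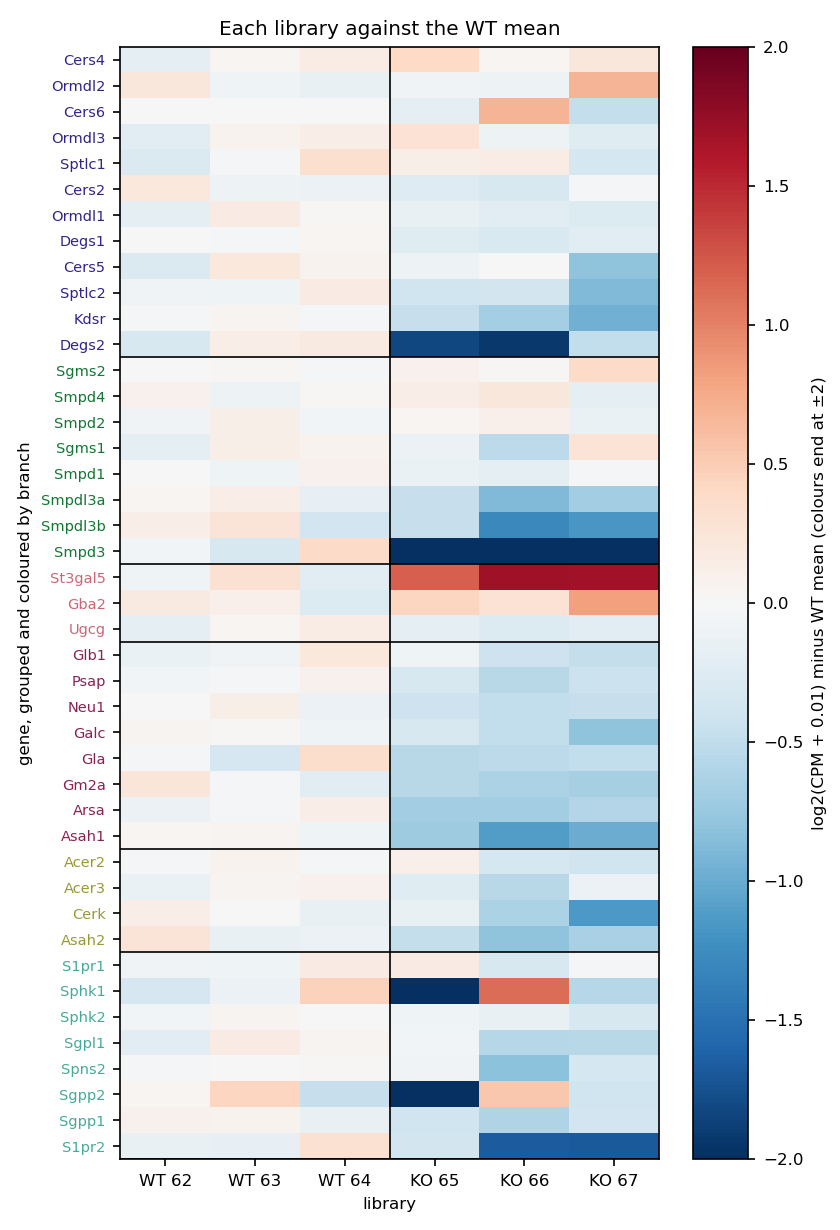
Log2(CPM + 0.01) of each of the 43 tested members (rows, grouped and coloured by branch) in each library (columns), minus the mean of the WT libraries; red is higher, blue lower, and colours end at ±2. The lysosomal rows are blue in all 3 CCR1-KO columns, apart from Glb1, which is nearly white in replicate 65. St3gal5 is red in all 3, and S1pr2 is pale in CCR1-KO replicate 65 and dark blue in replicates 66 and 67.

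The knockout libraries were not alike across the pathway. Of the 43 tested members, 26 had replicate 65 as the knockout library nearest to the WT mean, 6 had replicate 66 and 11 had replicate 67, beside 48.9% of all genes for replicate 65. In the lysosomal branch these numbers were 6, 0 and 2. The direction of the 9 called members was the same in every alternative fit run, and that of the lysosomal genes was below 0 for every one tested in each fit. Groups did not overlap for these 9 and for 7 of the 8 lysosomal genes. Leaving out 1 library could thus hardly change their direction. Scaling shifted the median of all genes by up to -0.30 log2 units (with no scaling factors). Relative to that median the members' median was -0.30 in the reported fit, -0.31 with no scaling factors and -0.26 by limma on log2(FPKM + 0.5).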

How the data were processed

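Polyadenylated liver RNA was sequenced as pairs from libraries with dUTP-marked second strands, per the labels' protocols. The deposited table gives, for each gene and library, a whole-number read count and FPKM, per the file headers; the authors scaled FPKM to gene length and library size. Tools named in the submitters' processing notes, without roles, are StringTie 2.1.6, HISAT2 2.2.1, cutadapt 1.9, edgeR and DESeq2. The build named there is GRCh38, yet identifiers are of mouse. For 36 of the 44 members start, end and strand equalled GENCODE M21 (GRCm38), so coordinates are given as GRCm38. No source used here says if counting was by strand, and 17 members share exon bases with another gene, so reads there are uncertain. Ormdl1 and Glb1 share them with a gene on the same strand, which counting by strand would not resolve.

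Counts were tested as deposited, CCR1-KO against WT, with edgeR 4.0.16 (R 4.3.3; filterByExpr, minimum count 10, minimum total 15; TMM; glmQLFit and glmQLFTest), leaving 17729 genes. The SE was taken as the size of the log2 fold change divided by √F. Alternatives were edgeR with DESeq2 size factors, no scaling factors or no filter, DESeq2 1.42.0, limma 3.58.1 on log2(FPKM + 0.5) for genes of at least 0.5 FPKM in 3 libraries (also with 0.1 or 1 added, without the filter, and after TMM scaling, which was chosen after the data were seen), and fits with 1 library left out. The edgeR script was first tested on simulated data. Replicates of a group differed by more than sampling noise (chi-square per degree of freedom at least 69.4). The 44 members and all gene lists were chosen with earlier results of these data known. Library values were printed for members past the threshold, for the most abundant member of each branch and for S1pr1 and S1pr2; those of other members were added to describe them. Other pathway genes were named where they passed, at most 4 of smallest p per list. Gal3st1, B4galnt1, B4galt5 and Apom were named after their values were seen. The 6 libraries of the other groups were not analysed here.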

Additional observations from a re-analysis of the deposited data

How the results depend on the processing

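All 9 called members kept their direction in all 15 alternatives, and each lost its call in at least 2 of them. Their groups did not overlap, so leaving out 1 library could hardly change the direction. Of the uncalled members 5 (Psap, Sgpp1, S1pr2, Cerk and Sgpl1) passed in at least 1 alternative, and 12 changed sign in at least 1 fit without a call. All genes called numbered 1141, against 735 with no filter on low counts, 2312 by DESeq2, 239 by limma without a filter and 102 to 2419 with 1 library left out. Called genes were higher in 43.9% of cases, but in 20.4% with no scaling factors and 17.0% by limma on FPKM. Members lower numbered 8, against 3 with no filter, 1 by limma without a filter and 0 to 11 with 1 library left out; members higher ranged from 0 to 1 in the latter. With no scaling factors, branch medians were -0.51 (de novo), -0.42 (sphingomyelin), 0.21 (glycosphingolipid), -0.83 (lysosomal), -0.72 (ceramidases and kinase) and -0.66 (S1P). By limma on log2(FPKM + 0.5) they were -0.39, -0.29, 0.17, -0.73 and -0.66 for de novo, sphingomyelin, glycosphingolipid, lysosomal and S1P, and -0.32, -0.31, 0.17, -0.73 and -0.57 without its filter. With 0.1 added they were -0.51, -0.39, 0.19, -0.76, -0.70 (ceramidases and kinase) and -0.70 (S1P), and with 1 added -0.36, -0.27, 0.14, -0.72 and -0.59, again without the ceramidases. After TMM scaling of FPKM the lysosomal median was -0.44. With 1 library left out the medians ranged from -0.22 to -0.15 (de novo), -0.24 to -0.071 (sphingomyelin), 0.35 to 0.62 (glycosphingolipid), -0.59 to -0.50 (lysosomal), -0.56 to -0.37 (ceramidases and kinase) and -0.39 to -0.23 (S1P). The causes were not tested, beyond fewer samples or a changed scale. No paired analysis was possible because the groups share no replicate numbers. Read depth limits the statements on Sptlc3, Sphk1, Sgpp2, Degs2 and Smpdl3b.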
